A study of Mus musculus with 16 samples.

Results

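The G1 cyclins, the kinases they activate, the phosphatase Cdc25a and the transcription factor E2f1 were measured as messenger RNA in cultured mouse ESCs (embryonic stem cells), which are pluripotent and derive from the early embryo. The set was a list of 10 genes out of 35968 with summed counts: the D-type cyclins Ccnd1, Ccnd2 and Ccnd3, the E-type cyclins Ccne1 and Ccne2, the kinases Cdk2, Cdk4 and Cdk6, and Cdc25a and E2f1. Poly(A) RNA was sequenced from 4 groups of 4 libraries, 16 in all. They were Dgcr8 knockout (KO) cells in mTOR inhibitor culture, labelled paused and day 2, KO cells in normal ESC culture, wild-type (WT) cells in mTOR inhibitor culture, likewise paused and day 2, and WT cells in normal culture. Dgcr8 binds primary microRNA transcripts for cutting by Drosha, so the comparison asks how cells labelled as lacking a factor of microRNA maturation respond to mTOR inhibition. The labels give 800000 cells and 1 µg of RNA per sample for every group. They do not say which part of Dgcr8 was deleted, whether the KO line is a single clone, or whether the libraries of a group came from separate cultures, so p-values measure the spread between these libraries, which may be technical.

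The libraries held 88377380 to 116646028 estimated counts, and all 10 genes passed the filter on low counts. Values are TMM-scaled counts divided by library size (CPM) for a gene across libraries, and TPM, which correct for transcript length, between genes. The TPM were not TMM-scaled between libraries. Dgcr8 itself was at 173 to 187 CPM in KO paused and 246 to 256 CPM in KO normal cells, against 50.8 to 56.2 CPM in WT paused and 45.3 to 49.2 CPM in WT normal cells, so its messenger level was higher in the libraries labelled KO. With the deleted part not stated, this checks nothing about the label. The Y-linked gene Ddx3y held 13 to 44 counts in KO libraries and 8326 to 10946 in WT libraries, so the lines differ in more than Dgcr8, and line and genotype cannot be told apart. The 8 pluripotency markers summed to 6992 to 7705 TPM in KO paused, 6872 to 7218 in KO normal, 8463 to 8815 in WT paused and 6188 to 7250 TPM in WT normal libraries. The 8 trophoblast markers summed to 61.5 to 68.9 TPM in KO paused against 32.3 to 33.1 TPM in KO normal libraries. They summed to 37.1 to 48.8 TPM in WT paused against 43.6 to 52.9 TPM in WT normal libraries. Gene by gene these markers were split. On pausing 4 of the 8 rose and 3 fell in KO cells, where 67.2% of all tested genes passed (edgeR adjusted p under 0.05). In WT cells 1 rose and 4 fell, where 60.7% of all tested genes passed. The median change of these markers (log2) was 0.23 in KO and -0.27 in WT cells, so the higher KO sum was not a rise of the whole list. The 9 fibroblast markers summed to 22.1 to 24.4 TPM in KO paused and 28.4 to 31.7 TPM in KO normal against 12.5 to 13.4 TPM in WT paused and 11.3 to 14.1 TPM in WT normal libraries. Of the 9 only 4 passed the filter on low counts. In KO against WT cells 1 of these was higher and 3 lower in normal culture, and 1 higher and 2 lower when paused (edgeR adjusted p under 0.05). Of all tested genes 68.2% passed in normal and 65.4% in paused culture. The median log2 fold change of these 4 markers was -0.88 in normal and -0.66 in paused culture, opposite to the sums. The 8 endoderm markers summed to 9.07 to 11.6 TPM in KO paused and 6.38 to 7.92 TPM in KO normal against 15.8 to 23.8 TPM in WT paused and 13.8 to 21.1 TPM in WT normal libraries. The 8 neural and mesoderm markers ran from 90.9 to 146 TPM over all libraries, and no marker of these lists was at 0 in a group. Their part in the results was not tested. Pseudogene transcripts took 3.38% to 4.16% of counts in KO paused, 2.57% to 6.25% in KO normal, 4.42% to 4.78% in WT paused and 6.20% to 9.81% in WT normal libraries, and fits without them are among the alternatives. In WT normal culture replicates 3 and 4 both stood above replicates 1 and 2 for all 10 genes, against 35.8% of all tested genes, so member results whose call or direction changes within either pair of replicates are given for the pairs too. In such bulk samples fewer cells of a type and less RNA per cell cannot be told apart.

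D-type cyclins carry growth signals into the cell cycle: they bind Cdk4 and Cdk6, and the complexes phosphorylate the retinoblastoma (Rb) proteins that hold E2F factors in check. Freed E2F factors such as E2f1 turn on genes of DNA replication and the E-type cyclins, which bind Cdk2 at the entry to S phase, while Cdc25a removes inhibitory phosphates from the kinases. Mouse ESCs are known for a short G1 phase, for high cyclin E activity through much of the cycle and for microRNAs of the miR-290 cluster that act on inhibitors of cyclin E and Cdk2.

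Because Dgcr8 acts in the maturation of most microRNAs, the seeds of 5 microRNA families and matches to them in these genes are shown first. Mature microRNAs are from RefSeq (GRCm38.p6), 5′ to 3′, with the seed (bases 2 to 8) in capitals:
mmu-miR-294-3p: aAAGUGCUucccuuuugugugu
mmu-miR-17-5p: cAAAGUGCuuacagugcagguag
mmu-miR-16-5p: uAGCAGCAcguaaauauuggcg
mmu-let-7a-5p: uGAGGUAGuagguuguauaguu
mmu-miR-34a-5p: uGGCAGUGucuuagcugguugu
miR-291a-3p and miR-295-3p share the seed of miR-294, miR-20a-5p and miR-106b-5p that of miR-17, miR-15a-5p and miR-195a-5p that of miR-16, let-7g-5p that of let-7a, and miR-449a-5p that of miR-34a. The seeds of miR-294 and miR-17 overlap by 6 bases, so a site can hold both. The 3′ UTR sites below, from GRCm38 transcripts, are examples, 1 to 2 per gene, of the matches to these seeds (AGCACTT for miR-294, GCACTTT for miR-17, TGCTGCT for miR-16, CTACCTC for let-7a and CACTGCC for miR-34a, read on the transcript's strand) in the genes the results turn on, chosen to show each seed, with the match in capitals:
Ccnd1, miR-294 seed: ccattccatttcaaAGCACTTtt
Ccnd2, miR-294 seed: cattccattagaaaAGCACTTtg
Cdk4, miR-294 seed: agaaatgcttgccgAGCACTTgt
Ccnd3, miR-16 seed: actgttgctttgctTGCTGCTta
Ccne1, miR-16 seed: tcttattttgtaagTGCTGCTat
Ccne2, miR-34a seed: tgtctaaggagttaCACTGCCat
Cdc25a, let-7a seed: tatcatcctaggagCTACCTCta
E2f1, miR-17 seed, first site: ggtgggctctaactGCACTTTtg
E2f1, miR-17 seed, second site: ccaccctccagtctGCACTTTga
The Ccnd1 and Ccnd2 sites lie at bases 924 to 930 of 2676 and 988 to 994 of 5173 of their 3′ UTRs, and in both the next base makes a miR-17 match as well. The Ccne1 site lies at bases 485 to 491 of 531. All 10 genes held at least 1 match to a seed in the longest 3′ UTR, against 47.2% of 16826 genes. Single families were found in 16.5% (miR-294), 13.3% (miR-17), 22.8% (miR-16), 10.4% (let-7) and 16.2% (miR-34a) of those genes. The longest UTRs of the set ran from 531 bases in Ccne1 to 10217 in Cdk6, against a median of 1122 over all genes. A match is a description of the sequence, and microRNAs were not measured here.

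By CPM, transcripts of all 5 cyclins and of Cdc25a fell on pausing in both genotypes, and 5 of these 6 genes fell further in KO than in WT cells by the test of that difference given below. The WT fall of Ccne2 did not pass on counts scaled for transcript length (edgeR adjusted p = 0.15). The kinases and E2f1 changed less or rose. In KO cells 7 of the 10 genes fell and 1 rose, where 67.2% of all 18944 tested genes passed the threshold (an adjusted p of 0.05 in the quasi-likelihood test of edgeR), 32.8% lower and 34.4% higher. In WT cells 6 fell and 4 rose, against 60.7% of all genes passing, 27.5% lower and 33.3% higher. Most genes of the transcriptome passed this threshold at this depth, so sizes are given beside the counts. By size, 5 members in KO cells (Ccnd1, Ccnd2, Ccne1, Ccne2 and Cdc25a) and 1 in WT cells (Ccne1) fell at least 2-fold, against 6.08% and 4.17% of all genes. For Ccnd1 and Ccne2 in KO cells this depended on the setting. On counts scaled for transcript length Ccne2 fell short of 2-fold, at -0.76 (log2). Within replicates 1 and 2 both fell short, at -0.94 for Ccnd1 and -0.98 for Ccne2. The median log2 fold change of the 10 genes on pausing was -0.88 in KO and -0.33 in WT cells, beside 0.02 and 0.04 over all genes. The 4 libraries of the paused group did not overlap the 4 of the normal group for 7 members in KO cells and 9 in WT cells, against 64.0% and 54.0% of all genes. The members were chosen with earlier results of these data known. Their counts and medians beside all genes, here and below, are therefore descriptions.

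**Figure D1:**
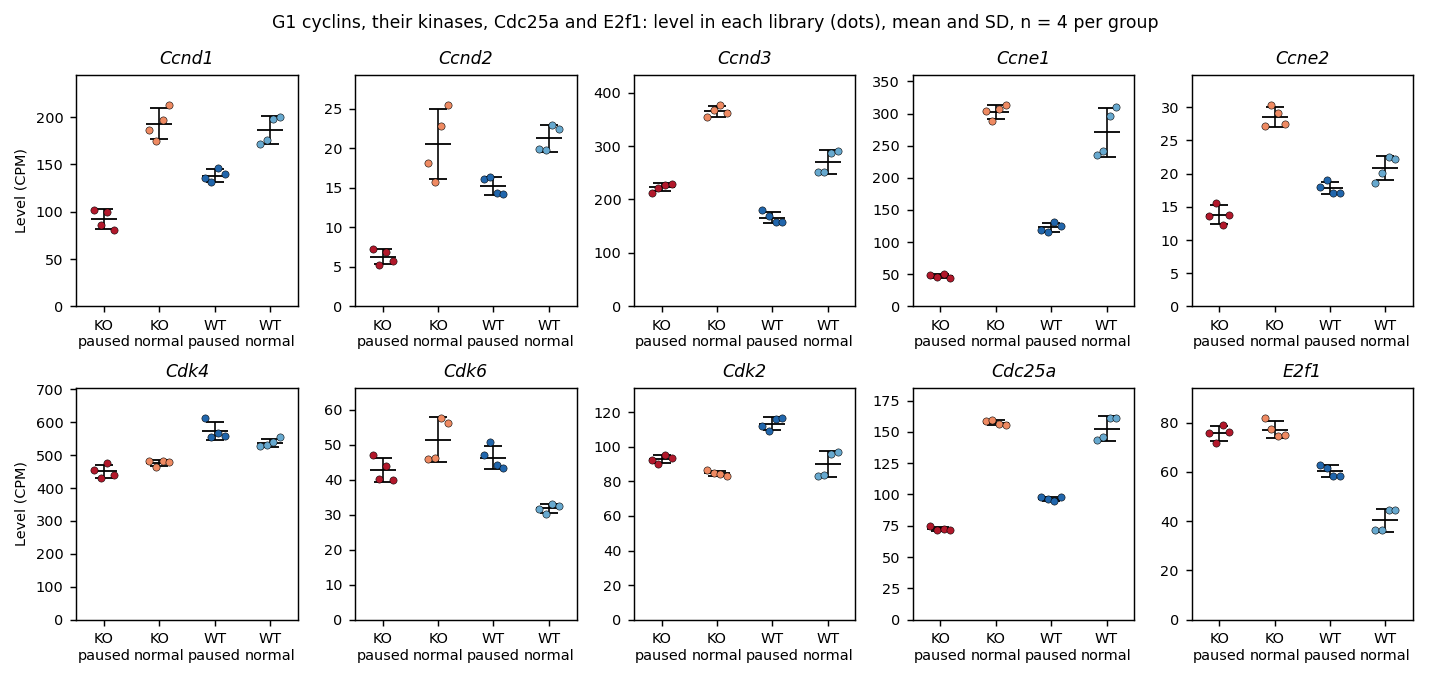
CPM of the 10 genes in each of the 16 libraries, by group, each panel with its own linear axis from 0. Points are libraries, lines are the mean and SD of 4, and the KO paused group is lowest for Ccnd1, Ccnd2, Ccne1, Ccne2 and Cdc25a.

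Among the D-type cyclins, Ccnd1 and Ccnd2 fell further on pausing in KO than in WT cells, while Ccnd3 fell by about the same factor in both. Ccnd1 (chr7:144929931-144939925, minus strand, GRCm38), the D cyclin most closely tied to mitogen signals, was at 102, 86.1, 99.5 and 80.2 CPM in KO paused and 186, 175, 197 and 213 CPM in KO normal libraries. WT paused libraries held 135, 131, 146 and 140.0 CPM and WT normal libraries 172, 176, 198 and 200.3 CPM. The normal groups overlapped each other, every paused library lay below every normal one, and KO paused lay below WT paused throughout. The log2 fold change on pausing was -1.07 ± 0.08 (SE, edgeR adjusted p = 2.9e-09) in KO and -0.43 ± 0.08 (SE, edgeR adjusted p = 0.00012) in WT cells. Ccnd2 (chr6:127125162-127152193, minus strand) was by TPM the least abundant of the 10, at 7.29, 5.28, 6.83 and 5.76 CPM in KO paused and 18.1, 15.7, 22.8 and 25.5 CPM in KO normal libraries. It was at 16.2, 16.4, 14.3 and 14.2 CPM in WT paused and 19.9, 19.8, 22.9 and 22.4 CPM in WT normal libraries. The KO paused libraries lay apart below all others. The KO normal range took in every WT normal library and the WT paused libraries at 16.2 and 16.4 CPM, but not those at 14.3 and 14.2 CPM. Ccnd2 fell 3.27-fold in KO cells, a log2 fold change of -1.71 ± 0.14 (SE, edgeR adjusted p = 8.6e-09), and by less in WT cells, -0.48 ± 0.13 (SE, edgeR adjusted p = 0.0042). Within WT replicates 1 and 2 alone the change was -0.28 (edgeR adjusted p = 0.073), which did not pass, and within replicates 3 and 4 it was -0.68 (edgeR adjusted p = 1.4e-06).

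Ccnd3 (chr17:47505051-47599691, plus strand), the D cyclin with the highest level per length in every group, separated all 4 groups. It was at 212, 222, 228 and 229 CPM in KO paused and 354, 368, 377 and 362 CPM in KO normal libraries. In WT cells it was at 179.8, 169, 158 and 158 CPM when paused and 252, 251, 287 and 290.2 CPM in normal culture. No 2 groups overlapped, with KO normal highest, then WT normal, KO paused and WT paused. Pausing changed it by -0.71 ± 0.05 (SE, edgeR adjusted p = 8.3e-10) in KO and -0.70 ± 0.05 (SE, edgeR adjusted p = 1.4e-09) in WT cells on the log2 scale. The difference between these responses was -0.01 ± 0.07 (SE, edgeR adjusted p = 0.91), and 0.01 with the size factors of DESeq2, so its sign turned with the scaling. It was -0.21 (edgeR adjusted p = 0.020) within replicates 1 and 2 and 0.19 (edgeR adjusted p = 0.0060) within replicates 3 and 4. Ccnd3 was higher in KO than in WT cells in both cultures, by 0.42 ± 0.05 in paused and 0.44 ± 0.05 in normal culture (log2, SE, edgeR adjusted p = 1.0e-06 and 6.0e-07).

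Of all 10 genes, Ccne1 had the largest change on pausing in both genotypes, and Ccne2 fell 2.06-fold in KO cells and 1.17-fold in WT cells. Ccne1 (chr7:38097984-38107534, minus strand) encodes the main Cdk2 partner at the G1/S boundary. Its level was 48.6, 45.0, 50.02 and 44.2 CPM in KO paused and 304, 288, 307 and 314 CPM in KO normal libraries. The corresponding values were 119, 116, 132 and 126 CPM in WT paused and 236, 241, 296 and 310.2 CPM in WT normal libraries. Paused and normal libraries did not overlap in either genotype, every KO paused library lay below every WT paused one, and the normal groups overlapped. Ccne1 was 6.46-fold lower in paused than in normal KO cells (edgeR adjusted p = 7.2e-14) and 2.20-fold lower in paused than in normal WT cells (edgeR adjusted p = 1.2e-09). In normal culture KO minus WT was 0.16 ± 0.08 (SE, edgeR adjusted p = 0.067), and it was 0.31 (edgeR adjusted p = 4.4e-05) within replicates 1 and 2 and 0.03 (edgeR adjusted p = 0.63) within replicates 3 and 4. Leaving out WT normal replicate 3 or 4 gave 0.19 and 0.24, which passed (edgeR adjusted p = 0.039 and 0.0065).

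Ccne2 (chr4:11191351-11204779, plus strand), the second E-type cyclin, was at 13.6, 15.6, 12.2 and 13.8 CPM in KO paused and 27.2, 30.4, 29.2 and 27.4 CPM in KO normal libraries. WT levels were 17.96, 19.1, 17.1 and 17.1 CPM in paused and 18.6, 20.1, 22.6 and 22.2 CPM in normal culture. KO normal libraries were above and KO paused libraries below all WT libraries, and the WT groups overlapped. The log2 fold change on pausing was -1.05 ± 0.07 (SE, edgeR adjusted p = 4.7e-10) in KO cells and -0.23 ± 0.07 (SE, edgeR adjusted p = 0.012) in WT cells. The WT change did not pass within replicates 1 and 2, at -0.06 (edgeR adjusted p = 0.52), nor on counts scaled for transcript length, at -0.13 (edgeR adjusted p = 0.15). In TPM, which carry no TMM scaling, Ccne2 averaged 17.6 ± 0.519 in WT paused and 16.2 ± 1.40 in WT normal cells (SD, n = 4 each), the opposite direction. Every alternative fit kept the WT change negative, from -0.40 to -0.06 (log2).

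**Figure D2:**
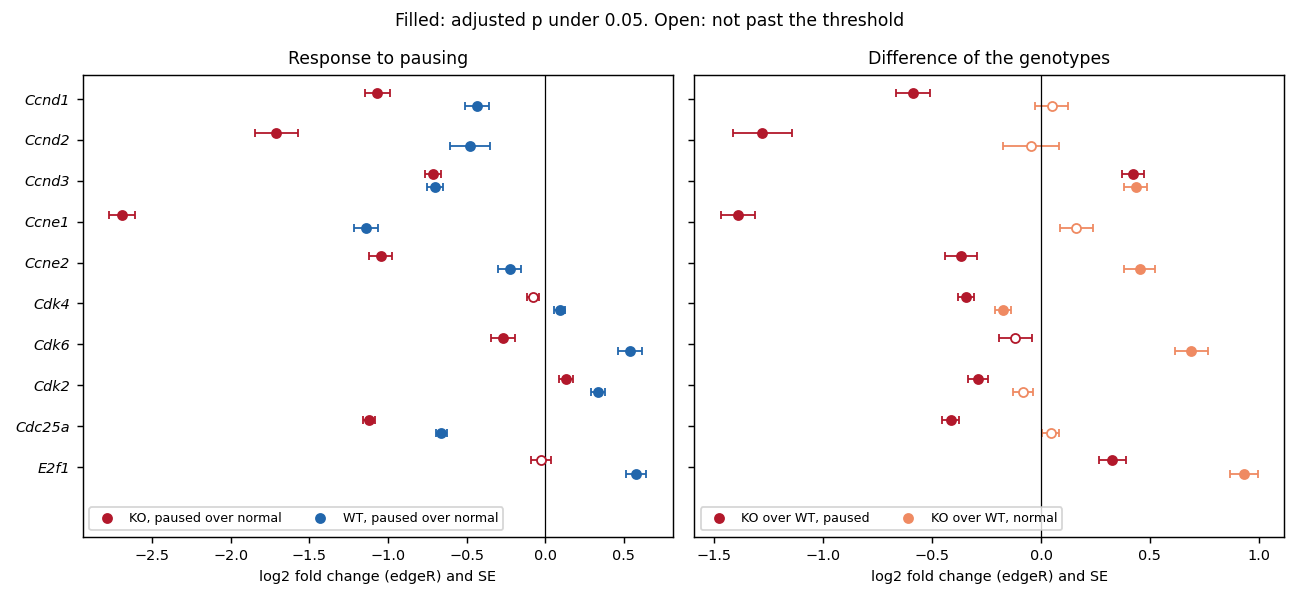
Log2 fold changes of the 10 genes with their SE, for pausing in KO and WT cells (left) and for KO over WT in paused and normal culture (right). Ccne1 lies lowest for both responses, at -2.69 in KO and -1.14 in WT cells, and the 2 markers of Ccnd3 lie together on the left.

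The 3 kinases did not change alike. In WT cells all rose on pausing, Cdk6 most, and in KO cells Cdk2 rose, Cdk6 fell and Cdk4 did not pass. Cdk4 (chr10:127063534-127067920, plus strand), partner of the D-type cyclins and by TPM the most abundant of the 10 genes, was at 456, 431, 477 and 440.3 CPM in KO paused and 482, 463, 481 and 481 CPM in KO normal libraries. It was at 613, 555, 568 and 557 CPM in WT paused and 529, 530.0, 540.2 and 555 CPM in WT normal libraries. All WT libraries were above all KO libraries, WT paused lay just above WT normal, and the 2 KO groups overlapped. The log2 fold change on pausing was -0.08 ± 0.04 (SE, edgeR adjusted p = 0.070) in KO cells, which did not pass, and 0.09 ± 0.04 (SE, edgeR adjusted p = 0.045) in WT cells. The WT call was lost without any 1 library except KO paused replicate 3, WT normal replicate 4 or WT paused replicate 2 or 4. Over the 16 such fits the value ran from 0.05 to 0.11, and it did not pass with DESeq2, at 0.06 (adjusted p = 0.17). It was 0.14 (edgeR adjusted p = 0.033) within replicates 1 and 2 and 0.03 (edgeR adjusted p = 0.54) within replicates 3 and 4. On counts of protein-coding transcripts alone Cdk4 fell in KO cells, at -0.32 (edgeR adjusted p = 2.6e-06), and its sign turned in WT cells, at -0.08 (edgeR adjusted p = 0.12). On counts scaled for transcript length it was 0.04 (edgeR adjusted p = 0.41) in KO and 0.22 (edgeR adjusted p = 0.00013) in WT cells, so the direction of Cdk4 depends on which transcripts are counted and how. On all counts the KO change passed with DESeq2, at -0.09 (adjusted p = 0.048), without KO paused replicate 3, at -0.10, and without WT paused replicate 1, at -0.08 (edgeR adjusted p = 0.020 and 0.047). Cdk4 was lower in KO than in WT cells in both cultures, at -0.35 ± 0.04 in paused (edgeR adjusted p = 2.1e-07) and -0.18 ± 0.04 in normal culture (edgeR adjusted p = 0.00045).

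Cdk6 (chr5:3341485-3531008, plus strand), the other partner of the D-type cyclins, ran against the cyclins in WT cells. Its level was 47.0, 40.1, 43.9 and 39.8 CPM in KO paused and 45.9, 46.1, 57.6 and 56.3 CPM in KO normal libraries. WT libraries were at 47.2, 50.6, 44.1 and 43.3 CPM when paused and 31.7, 30.1, 33.1 and 32.6 CPM in normal culture. The WT normal libraries were the lowest throughout, and the 3 other groups overlapped. On the log2 scale Cdk6 rose by 0.54 ± 0.08 (SE, edgeR adjusted p = 8.5e-06) on pausing in WT cells and changed by -0.27 ± 0.08 (SE, edgeR adjusted p = 0.0048) in KO cells, where the groups overlapped and replicates 1 and 2 alone gave -0.08 (edgeR adjusted p = 0.31) and replicates 3 and 4 alone -0.44 (edgeR adjusted p = 6.6e-07). Between paused genotypes Cdk6 did not pass, at -0.12 (edgeR adjusted p = 0.19), and passed within replicates 1 and 2, at -0.17 (edgeR adjusted p = 0.046). On counts scaled for transcript length the KO change was -0.54 (edgeR adjusted p = 2.6e-05), the WT rise disappeared, at -0.01 (edgeR adjusted p = 0.96), and the difference between the responses was -0.54 (edgeR adjusted p = 0.0022). The share of the longer Cdk6 transcript, described below, was higher in the same libraries. The part of that share in the rise was not tested. A transcribed pseudogene with a stretch 92.3% identical to Cdk6, Gm16505, held 71.4 to 174 counts a library, and adding it and other near-identical transcripts changed no call for any member.

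Cdk2 (chr10:128697939-128705031, minus strand), the kinase of the E-type cyclins, was highest in WT paused cells. It was at 92.2, 89.9, 95.4 and 93.8 CPM in KO paused and 86.4, 84.9, 84.2 and 83.4 CPM in KO normal libraries. The WT values were 112, 109, 116 and 116.6 CPM in paused and 83.2, 83.5, 95.6 and 97.0 CPM in normal culture. WT paused libraries lay above all others, and KO paused above KO normal libraries. The log2 fold change on pausing was 0.13 ± 0.05 (SE, edgeR adjusted p = 0.017) in KO and 0.34 ± 0.05 (SE, edgeR adjusted p = 3.9e-06) in WT cells. The KO rise did not pass on counts of protein-coding transcripts, 0.04 (edgeR adjusted p = 0.46), on counts scaled for length, 0.07 (edgeR adjusted p = 0.19), or within replicates 1 and 2, 0.09 (edgeR adjusted p = 0.071). The WT rise was 0.21 (edgeR adjusted p = 0.0014) on counts of protein-coding transcripts. KO minus WT in normal culture was -0.08 ± 0.05 (SE, edgeR adjusted p = 0.11) and passed with protein-coding genes only, at -0.14 (edgeR adjusted p = 0.012), with 0.04 (edgeR adjusted p = 0.37) within replicates 1 and 2 and -0.21 (edgeR adjusted p = 5.3e-05) within replicates 3 and 4. Leaving out WT normal replicate 1 or 2 gave -0.12 and -0.13, which passed (edgeR adjusted p = 0.028 and 0.021).

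Cdc25a (chr9:109875579-109893895, plus strand), the phosphatase that activates Cdk2 and Cdk4 complexes, fell on pausing in both genotypes and further in KO cells. It was at 74.8, 71.4, 72.1 and 71.3 CPM in KO paused and 158, 159.7, 156 and 155 CPM in KO normal libraries. In WT cells the levels were 98.2, 96.1, 94.4 and 97.7 CPM when paused and 143, 146, 161 and 161 CPM in normal culture. The normal groups overlapped, and the KO paused, WT paused and normal libraries formed 3 separate levels. Cdc25a fell 2.17-fold in KO cells, a log2 fold change of -1.12 ± 0.04 (SE, edgeR adjusted p = 4.9e-14), and 1.58-fold in WT cells, -0.66 ± 0.04 (SE, edgeR adjusted p = 4.2e-11). In normal culture KO minus WT was 0.04 ± 0.04 (SE, edgeR adjusted p = 0.32), and 0.14 (edgeR adjusted p = 0.0071) within replicates 1 and 2 against -0.05 (edgeR adjusted p = 0.17) within replicates 3 and 4.

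E2f1 (chr2:154559407-154569892, minus strand), a transcription factor of S-phase genes, was the member with the largest difference between genotypes in normal culture. It was at 75.8, 71.9, 79.2 and 76.1 CPM in KO paused and 81.9, 77.3, 74.7 and 74.9 CPM in KO normal libraries. It was at 63.0, 61.6, 58.5 and 58.3 CPM in WT paused and 36.5, 36.4, 44.4 and 44.7 CPM in WT normal libraries. The KO groups overlapped each other and lay above both WT groups, which were apart. KO cells had 1.91-fold more E2f1 than WT cells in normal culture (edgeR adjusted p = 2.2e-10) and 1.25-fold more when paused (edgeR adjusted p = 0.00013). On pausing E2f1 rose in WT cells, by 0.58 ± 0.06 (SE, edgeR adjusted p = 1.9e-07), with 0.78 within replicates 1 and 2 and 0.38 within replicates 3 and 4 (edgeR adjusted p = 4.8e-09 and 2.9e-07). In KO cells the log2 fold change was -0.03 ± 0.06 (SE, edgeR adjusted p = 0.71), and its sign differed between those pairs of replicates, at -0.11 (edgeR adjusted p = 0.046) and 0.06 (edgeR adjusted p = 0.16).

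E2F factors bind short GC-rich motifs in promoters, and the promoters of 2 members that hold such letters are shown. Of these genes Cdc25a fell and Cdk2 rose on pausing. The windows run from 250 bases before to 50 after the RefSeq start (GRCm38.p6), with matches on either strand to the E2F motif TTGGCGC or to its variants TTGCCGC or TTCGCGC or TTCCCGC in capitals:
Cdc25a, chr9:109875329-109875628, plus strand: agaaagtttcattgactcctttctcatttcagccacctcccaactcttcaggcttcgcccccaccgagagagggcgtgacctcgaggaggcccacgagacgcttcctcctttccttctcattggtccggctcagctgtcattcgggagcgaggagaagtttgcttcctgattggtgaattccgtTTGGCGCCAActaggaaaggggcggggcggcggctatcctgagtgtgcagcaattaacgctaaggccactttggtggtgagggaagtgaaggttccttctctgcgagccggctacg
Cdk2, chr10:128705002-128705301, minus strand: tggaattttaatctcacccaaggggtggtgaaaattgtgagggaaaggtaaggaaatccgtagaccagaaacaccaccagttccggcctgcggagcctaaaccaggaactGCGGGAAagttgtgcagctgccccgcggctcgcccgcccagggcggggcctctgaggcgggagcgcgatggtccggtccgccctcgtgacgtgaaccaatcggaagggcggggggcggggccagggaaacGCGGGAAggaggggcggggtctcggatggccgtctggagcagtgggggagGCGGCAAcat
In Cdc25a 2 matches on opposite strands overlap within TTGGCGCCAA and begin 66 and 63 bases before the start. In Cdk2 the 3 matches begin 140 and 10 bases before the start and at base 40 after it. RefSeq windows were matched for 7 members, 8 windows in all (not for Ccnd1, Ccnd2 and Ccne2), and the other 6 windows held no match. Of those 6, the windows of E2f1 and Cdk6 and 1 of the 2 of Ccnd3 lie inside the gene and do not cover its GENCODE start, so they say nothing about that start. Over all 32851 promoters of that length 9.57% held at least 1. A match describes the letters, not a bound site.

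The test of the difference between the KO and WT responses (the interaction) passed for 9 of the 10 genes, each lower in KO than in WT cells relative to its own normal culture. Of all tested genes 41.9% passed, 24.5% lower and 17.4% higher, and with protein-coding genes only the lean turned, with 3715 lower and 3914 higher. Ccne1 had the largest difference, -1.55 ± 0.11 (SE, edgeR adjusted p = 2.2e-08) on the log2 scale, followed by Ccnd2 with -1.23 ± 0.19 (SE, edgeR adjusted p = 6.9e-05), and these 2 were the members at least 2-fold lower, as were 4.18% of all genes. Next were Ccne2 at -0.82 ± 0.10 (SE, edgeR adjusted p = 6.3e-06), Cdk6 at -0.81 ± 0.11 (SE, edgeR adjusted p = 1.5e-05) and Ccnd1 at -0.64 ± 0.11 (SE, edgeR adjusted p = 0.00022). E2f1 at -0.60 ± 0.09 (SE, edgeR adjusted p = 2.7e-05) and Cdc25a at -0.46 ± 0.05 (SE, edgeR adjusted p = 2.6e-06) were smaller, and the E2f1 difference was -0.89 within replicates 1 and 2 and -0.33 within replicates 3 and 4 (edgeR adjusted p = 2.2e-07 and 0.00014). Cdk2 at -0.20 ± 0.06 (SE, edgeR adjusted p = 0.017) and Cdk4 at -0.17 ± 0.05 (SE, edgeR adjusted p = 0.016) passed narrowly and did not pass within replicates 3 and 4, at -0.09 (edgeR adjusted p = 0.15) and -0.10 (edgeR adjusted p = 0.21). Both were also lost without WT normal replicate 2, at -0.13 for Cdk2 and -0.12 for Cdk4 (edgeR adjusted p = 0.12 and 0.090), and Cdk4 without WT normal replicate 3, at -0.13 (edgeR adjusted p = 0.069). With protein-coding genes only neither passed, at -0.14 for Cdk2 and -0.10 for Cdk4 (edgeR adjusted p = 0.092 and 0.11). The median difference was -0.62 over the 10 genes and -0.03 over all genes.

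Set against WT cells, paused KO cells had lower levels of most members and normal KO cells did not. In paused culture 7 of the 10 genes were lower and 2 higher in KO than in WT cells (65.4% of all genes passed, 34.5% lower and 30.8% higher). Ccne1 was 2.62-fold lower (edgeR adjusted p = 1.0e-10) and Ccnd2 2.43-fold lower (edgeR adjusted p = 3.4e-07), and 11.8% of all genes were likewise at least 2-fold lower. Ccnd1 changed by -0.59 ± 0.08, Cdc25a by -0.42 ± 0.04, Ccne2 by -0.37 ± 0.07 and Cdk2 by -0.29 ± 0.05 (log2, SE), and Ccnd3 and E2f1 were the higher ones. In normal culture 4 members were higher and 1 lower (68.2% passed, 34.1% higher and 34.1% lower). Cdk6 at 0.69 ± 0.08 (SE, edgeR adjusted p = 3.3e-07) and Ccne2 at 0.45 ± 0.07 (SE, edgeR adjusted p = 2.1e-05) were higher, as were E2f1 and Ccnd3, and Cdk4 was lower, while for Ccnd1 (0.05 ± 0.08) and Ccnd2 (-0.05 ± 0.13) the groups overlapped. KO and WT libraries did not overlap for 9 members in paused and 5 in normal culture, against 63.4% and 60.5% of all genes. The comparisons share groups (a paused or a normal one), so their values are set side by side and not correlated.

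Compared per length, the make-up of each family moved with pausing and genotype. D-type cyclins summed to 246 ± 3.22 TPM in KO paused, 373 ± 28.4 in KO normal, 213 ± 7.01 in WT paused and 271 ± 19.9 TPM in WT normal cells (SD, n = 4 each). E-type cyclins summed to 58.3 ± 2.31 TPM in KO paused, 262 ± 18.7 in KO normal, 125 ± 5.92 in WT paused and 214 ± 26.1 TPM in WT normal cells. Cdk4 and Cdk6 together stood at 828 ± 45.4 TPM in KO paused against 710.2 ± 39.2 TPM in KO normal cells. In WT cells the sum was 1015 ± 19.6 TPM when paused against 736 ± 30.7 TPM in normal culture. These family sums carry no TMM scaling between libraries. On TMM-scaled counts scaled for transcript length, Cdk4 changed by 0.04 (log2, edgeR adjusted p = 0.41) in KO and 0.22 (edgeR adjusted p = 0.00013) in WT cells. On the same counts Cdk6 changed by -0.54 (edgeR adjusted p = 2.6e-05) in KO and -0.01 (edgeR adjusted p = 0.96) in WT cells. Neither gene therefore passed as higher in KO cells there. Of the Cdk4 transcripts, the coding transcript Cdk4-201 stood lower in KO paused cells and averaged 170 ± 7.65 TPM in KO paused against 199.6 ± 9.56 TPM in KO normal cells. The transcript Cdk4-208, annotated for nonsense-mediated decay, averaged 165 ± 12.8 TPM in KO paused against 124 ± 4.92 TPM in KO normal cells. The 4 KO paused libraries had less summed E-type cyclin TPM than all 12 others. Shares were tested with exact permutation tests over libraries, two-sided, adjusted over 20 tests, where 4 against 4 cannot go below p = 0.0286. Ccnd3 made up 81.6% ± 2.19 of D-type cyclin TPM in KO paused, 77.4% ± 1.68 in KO normal, 68.4% ± 2.04 in WT paused and 71.6% ± 0.482 in WT normal cells, so KO was above WT in both cultures without overlap (exact permutation test, adjusted p = 0.0381). Its share fell on pausing in WT cells (exact permutation test, adjusted p = 0.0381), and in KO cells the groups overlapped (exact permutation test, adjusted p = 0.0602). Ccne1 made up 74.0% ± 2.00 of E-type cyclin TPM in KO paused against 91.5% ± 0.442 in KO normal cells, and 85.9% ± 0.756 in WT paused against 92.4% ± 0.309 in WT normal cells, lower on pausing in every library of both genotypes (exact permutation test, adjusted p = 0.0381). This share counts Ccne2 transcripts without a protein-coding annotation. They held 53.4% of Ccne2 TPM in KO paused and 40.3% in KO normal cells, and 49.5% in WT paused and 45.7% in WT normal cells. The share among coding transcripts alone was not tested. Ccnd2 was a minor part throughout, 0.922% ± 0.265 in KO paused, 1.87% ± 0.420 in KO normal, 2.75% ± 0.348 in WT paused and 2.89% ± 0.201 in WT normal cells. Of the TPM of Cdk4 and Cdk6, Cdk4 held 96.2% ± 0.275 in KO paused, 94.4% ± 0.260 in KO normal, 97.1% ± 0.243 in WT paused and 96.6% ± 0.283 in WT normal cells.

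**Figure D3:**
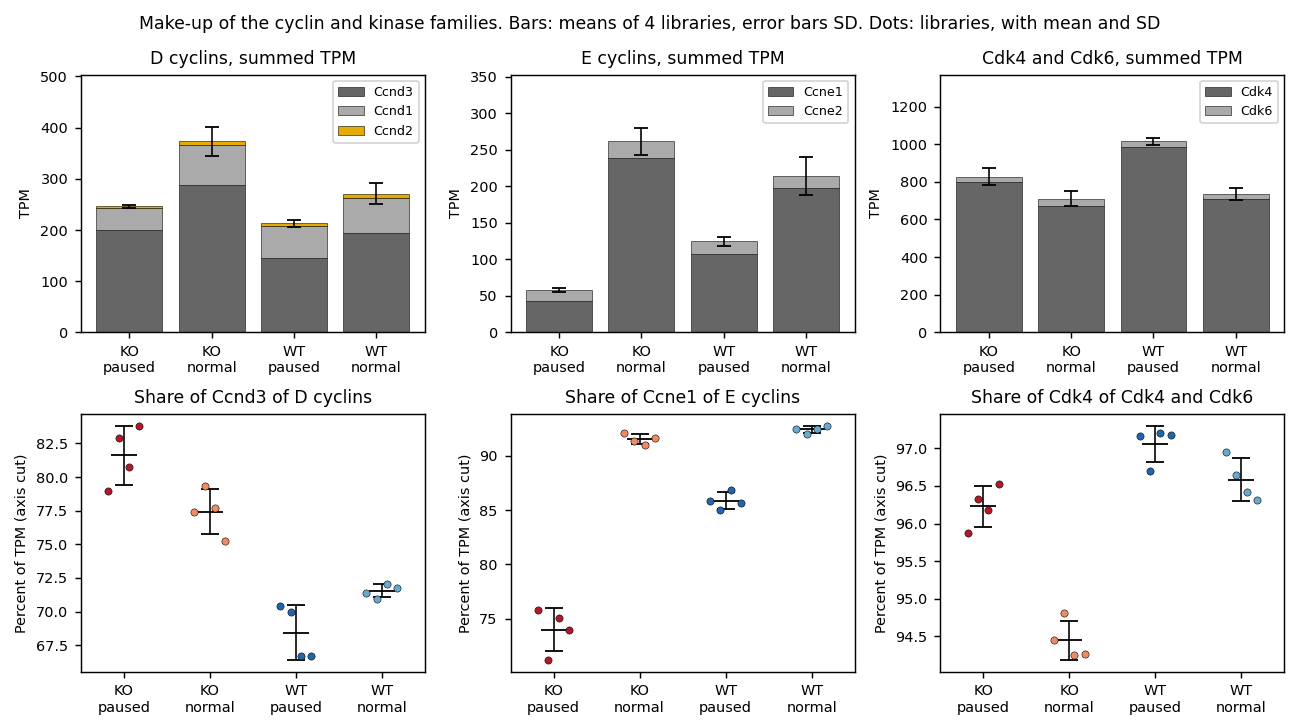
Top, summed TPM of the D-type cyclins, the E-type cyclins and the kinases Cdk4 and Cdk6 per group, stacked by gene, with the SD of the sum over 4 libraries. Bottom, the share of the leading gene in each library on cut axes, where Ccne1 averages 74.0% of E-type cyclin TPM in KO paused, 91.5% in KO normal, 85.9% in WT paused and 92.4% in WT normal cells. TPM are summed over all transcripts of a gene, with or without a protein-coding annotation, and are not TMM-scaled between libraries.

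The share of TPM held by 1 of a pair of transcripts, or by transcripts without a protein-coding annotation, was compared between cultures. These shares were chosen after their values were seen and 52 were tested, of which 21 reached the smallest p that 4 against 4 allow in an exact permutation test, 0.0286. That p became 0.0707 after adjustment, so no share passed. Of the 2 full protein-coding Cdk2 transcripts, Cdk2-202 made up 59.3% ± 2.67 in KO paused and 34.5% ± 1.52 in KO normal cells, and 59.7% ± 3.85 in WT paused and 40.8% ± 3.66 in WT normal cells (SD, n = 4 each). Paused and normal libraries did not overlap in either genotype. Cdk2-202 encodes 346 and Cdk2-201 298 amino acids, and they share 7 coding exons. The difference is 1 coding exon of 144 bases, or 48 codons, in frame (chr10:128699976-128700119, minus strand, GRCm38), shown here as the stretch whose inclusion separates them:
Cdk2-202 exon: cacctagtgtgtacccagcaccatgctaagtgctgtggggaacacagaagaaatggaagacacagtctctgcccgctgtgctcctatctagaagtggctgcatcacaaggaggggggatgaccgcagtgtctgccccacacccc
Cdk6-202, with a 3′ UTR of 10217 bases, made up 36.5% ± 3.49 in KO paused against 25.5% ± 2.73 in KO normal cells, and 34.9% ± 0.924 in WT paused against 22.8% ± 1.18 in WT normal cells of the TPM of this transcript and Cdk6-201, whose 3′ UTR has 1434 bases. Both are a part of Cdk6 TPM, where the transcript Cdk6-205 averaged 13.8 TPM beside 3.88 TPM of Cdk6-202 in KO paused cells. The long form holds 10 of the microRNA seed matches counted above and the short form 2, or 0.979 and 1.39 per kb of 3′ UTR. E2f1-202, with 430 amino acids against 385 in E2f1-201, made up 87.3% ± 1.62 in KO paused against 80.1% ± 1.10 in KO normal cells, and 86.4% ± 1.23 in WT paused against 77.2% ± 3.18 in WT normal cells. For Cdk4, transcripts without a protein-coding annotation held 63.7% ± 1.07 of TPM in KO paused against 52.1% ± 0.879 in KO normal cells, and 63.6% ± 1.44 in WT paused against 57.5% ± 1.45 in WT normal cells. For Ccne2 such transcripts held 53.4% ± 3.93 in KO paused against 40.3% ± 5.18 in KO normal cells, and 49.5% ± 4.06 in WT paused against 45.7% ± 1.03 in WT normal cells, where the libraries overlapped. By estimated counts these Ccne2 transcripts held 8.43% to 11.7% in KO paused against 4.45% to 6.69% in KO normal libraries. Each had at most 115 counts in a library. How reads were split among overlapping transcripts is an estimate of the authors' kallisto run.

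**Figure D4:**
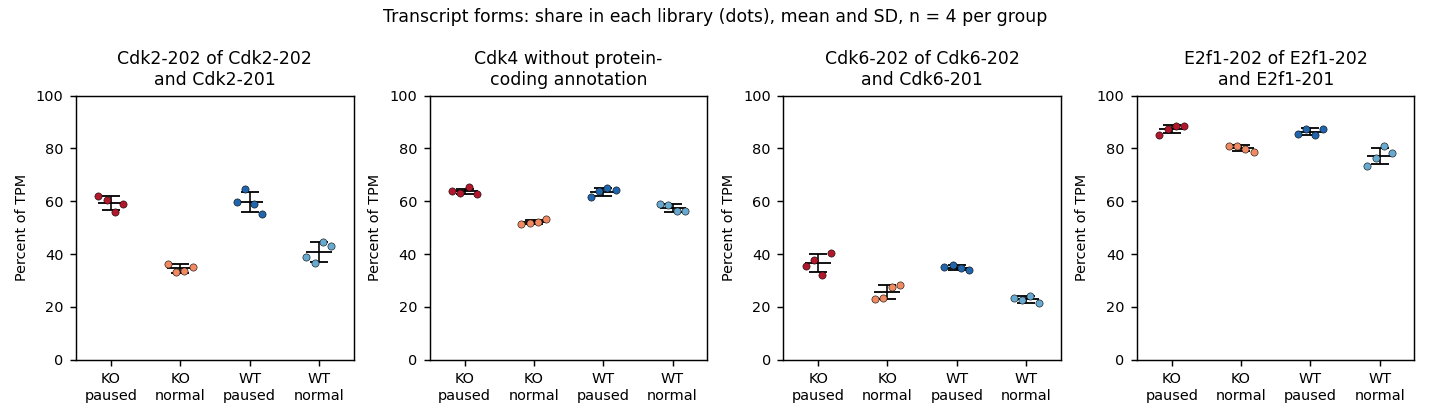
Share of TPM of named transcript forms of Cdk2, Cdk4, Cdk6 and E2f1 in each library (points), with the mean and SD of 4 per group, on axes from 0 to 100%. In all 4 panels the paused libraries lie above the normal ones of the same genotype.

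The wider pathway was read from lists of its other genes, counted against the shares of all genes given above, with log2 fold changes ± SE. These lists too were chosen with earlier results of these data known, so their counts are descriptions. Of 20 replication genes that are known E2F targets, 18 fell on pausing in KO cells. In WT cells 13 fell and 3 rose, a split that became 15 and 1 with the size factors of DESeq2. Rrm2, the small subunit of ribonucleotide reductase, fell most, with -1.38 ± 0.03 (edgeR adjusted p = 1.2e-16) in KO and -0.99 ± 0.03 (edgeR adjusted p = 1.8e-14) in WT cells on the log2 scale. In KO cells Tk1, a thymidine kinase, followed with -1.02 ± 0.07 (edgeR adjusted p = 8.2e-10) and Cdc6, which loads the replicative helicase, with -0.98 ± 0.05 (edgeR adjusted p = 2.4e-12). In WT cells Cdc6 had -0.58 ± 0.05 (edgeR adjusted p = 2.9e-09) and Rrm1, the large subunit of ribonucleotide reductase, -0.57 ± 0.04 (edgeR adjusted p = 1.5e-10). The list's median was -0.52 in KO and -0.30 in WT cells, and 13 of the 20 passed as lower in the interaction. In normal culture 13 of the 20 were higher and 2 lower in KO than in WT cells, beside the higher E2f1. Of 9 other E2F and DP factors, 6 fell and 2 rose in KO and 2 fell and 3 rose in WT cells. Tfdp1, the DNA-binding partner of E2F factors, fell in both, with -0.93 ± 0.05 (edgeR adjusted p = 9.9e-12) in KO and -0.61 ± 0.05 (edgeR adjusted p = 3.4e-09) in WT cells. E2f3 with -0.71 ± 0.05 (edgeR adjusted p = 5.1e-10) and E2f2 with -0.65 ± 0.08 (edgeR adjusted p = 4.4e-07), activators like E2f1, fell in KO cells, and the repressor E2f6 rose by 0.75 ± 0.06 (edgeR adjusted p = 1.3e-09) in WT cells. For 7 of the 9 the interaction passed as lower in KO cells.

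Of 7 CDK inhibitors, 1 rose and 2 fell in KO and 2 rose and 2 fell in WT cells. Cdkn1b, which encodes p27 and holds cyclin E and Cdk2 complexes in check, rose by 0.90 ± 0.06 (edgeR adjusted p = 3.2e-10) in KO and 1.20 ± 0.06 (edgeR adjusted p = 1.4e-11) in WT cells. Its level was 86.3 ± 6.17 CPM in KO paused against 46.3 ± 3.35 CPM in KO normal cells and 40.8 ± 1.82 CPM in WT paused against 17.7 ± 1.31 CPM in WT normal cells (SD, n = 4 each). Cdkn1c, which encodes p57, fell, with -1.52 ± 0.20 (edgeR adjusted p = 9.1e-06) in KO and -0.87 ± 0.17 (edgeR adjusted p = 0.00051) in WT cells. KO against WT cells gave -3.97 ± 0.20 (edgeR adjusted p = 3.7e-10) when paused and -3.32 ± 0.19 (edgeR adjusted p = 1.0e-09) in normal culture. Its level was 4.37 ± 1.40 CPM in KO paused and 12.5 ± 2.40 CPM in KO normal against 68.1 ± 1.91 CPM in WT paused and 124 ± 20.03 CPM in WT normal cells. The 7 inhibitors were split between genotypes, with 2 higher and 4 lower in KO than in WT cells when paused and 3 higher and 4 lower in normal culture. Cdkn2b, which encodes p15 and was at most 1.46 CPM on average, fell, with -1.04 ± 0.21 (edgeR adjusted p = 0.00023) in KO and -1.34 ± 0.17 (edgeR adjusted p = 1.1e-06) in WT cells. In the interaction 2 of the 7 passed as lower, Cdkn1b at -0.30 ± 0.09 (edgeR adjusted p = 0.0096) and Cdkn2d, which encodes p19, at -0.33 ± 0.11 (edgeR adjusted p = 0.021). Of the 3 Rb family genes Rbl1, which encodes p107, rose by 0.51 ± 0.06 (edgeR adjusted p = 5.2e-07) in KO and 0.64 ± 0.06 (edgeR adjusted p = 3.3e-08) in WT cells, and the other 2 did not pass in either. In WT cells 1 of the 3 rose and 2 fell within replicates 1 and 2, and all 3 rose within replicates 3 and 4. Within these pairs 2 of the 7 inhibitors rose in either, and 3 fell in replicates 1 and 2 and 4 in replicates 3 and 4.

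Of 12 genes that turn over G1 cyclins or Cdc25a, 7 fell and 2 rose in KO and 9 fell in WT cells. Skp2 and its cofactor Cks1b, which mark p27 for destruction, fell in both. Skp2 changed by -0.79 ± 0.04 (edgeR adjusted p = 8.2e-12) in KO and -0.66 ± 0.04 (edgeR adjusted p = 1.2e-10) in WT cells, and Cks1b by -1.02 ± 0.06 (edgeR adjusted p = 2.4e-11) in KO and -0.45 ± 0.06 (edgeR adjusted p = 1.6e-06) in WT cells. Fbxo4, an F-box gene at 0.850 ± 0.109 CPM in KO paused and 0.455 ± 0.0370 CPM in KO normal cells, rose by 0.91 ± 0.16 (edgeR adjusted p = 8.7e-05) in KO cells, and Skp1a, a core subunit of the ligase, fell, with -0.67 ± 0.03 (edgeR adjusted p = 1.2e-11) in WT cells. Of 7 genes of the CDK-activating kinase, the other Cdc25 phosphatases and the Wee1 kinases, 4 fell and 1 rose in KO and 3 fell and 3 rose in WT cells. Ccnh, the cyclin of the activating kinase, fell, with -0.26 ± 0.06 (edgeR adjusted p = 0.00075) in KO and -0.40 ± 0.06 (edgeR adjusted p = 9.4e-06) in WT cells, and Cdc25b rose by 0.59 ± 0.05 (edgeR adjusted p = 1.3e-08) in WT cells. Of 6 S and M phase cyclins with Cdk1, 4 fell and 1 rose in KO and 3 fell and 2 rose in WT cells, where 1 fell within replicates 3 and 4. Ccnb1, the mitotic cyclin B1, fell, with -0.66 ± 0.04 (edgeR adjusted p = 6.5e-11) in KO and -0.31 ± 0.04 (edgeR adjusted p = 2.1e-06) in WT cells, and Ccnb2 rose by 0.63 ± 0.04 (edgeR adjusted p = 4.6e-10) in WT cells. Ccna1, a cyclin best known from germ cells and at most 1.56 CPM on average, rose by 2.27 ± 0.22 (edgeR adjusted p = 3.0e-08) in KO and 1.58 ± 0.23 (edgeR adjusted p = 7.5e-06) in WT cells.

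**Figure D5:**
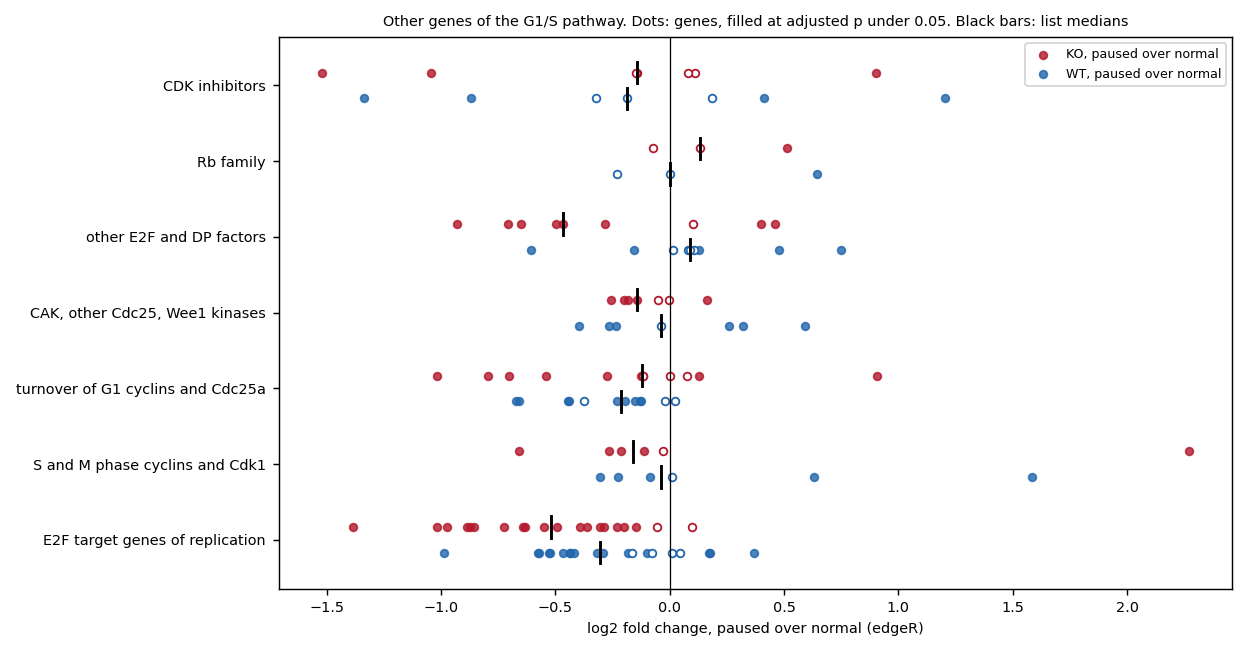
Log2 fold changes on pausing of the other genes of the pathway, by list, for KO (upper row of each pair) and WT cells, filled where the adjusted p was under 0.05, with black bars at the list medians. The E2F targets lie mostly left of 0, with medians of -0.52 in KO and -0.30 in WT cells.

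For each member the most alike genes were the 3 of 9150 protein-coding candidates with the highest Pearson correlation of log2 CPM over the 16 libraries, given as a description since the points share group and depth. For the cyclins they were, with the highest r in brackets, Lsm6 (0.996), Gemin4 and Park7 for Ccnd1, Drg1 (0.983), Ywhaq and Nefh for Ccnd2, Eloc (0.993), Dus2 and Immt for Ccnd3, Fam98a (0.994), Slc35b1 and Cks1b for Ccne1 and Eif2ak2 (0.966), Rinl and Nudt14 for Ccne2. Cks1b, of the turnover list above, stood among the 3 closest to Ccne1. For the kinases they were Pold1 (0.981), Rnf19b and Ninl for Cdk2, Enpp3 (0.962), Rad52 and Tgm3 for Cdk4 and Dock1 (0.935), Carmil2 and Ptk2 for Cdk6. Cdc25a was closest to Gtf2f2 (0.997), Psmd13 and Eif4g2, and E2f1 to Plod1 (0.994), Plxdc1 and Ephb2.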

How the data were processed

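The authors deposited a table of estimated counts, TPM and effective lengths per transcript for each library, made with kallisto on GRCm38 per the submitters' processing notes (version not given in the sources used here). Symbols came from GENCODE M21, which matched 116728 of 118489 transcripts, and unmatched ones, 0.656% to 0.712% of counts, were left out. The deposited estimated counts were summed to 35968 genes and rounded. Genes passing a minimum count of 10 (18944) were scaled by TMM and tested in R 4.3.3 with edgeR 4.0.16 (quasi-likelihood F test, robust) over all 16 libraries, in 5 contrasts, with Benjamini-Hochberg adjustment over all tested genes at 0.05. Each SE is the size of the fold change (log2) over the square root of F, and the biological coefficient of variation was 0.0852. The deposited TPM were summed per gene for levels between genes. The code was tested on simulated data. Near-identical transcripts (at least 90% over 200 bases) were found with blastn 2.17.0+. Per pathway list at most 3 called genes with the largest fold changes in a contrast were eligible for naming, and per member the 3 most correlated genes, averaging 3 or more in log2 CPM (prior count 2). Values of Cdkn1c between genotypes were added after they were seen. Members and lists were chosen with earlier results of these data known.

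Alternatives were DESeq2 1.42.0 and its size factors, other count filters, only the groups compared, replicate terms and subsets, each library left out, length-scaled counts and protein-coding genes only. Protein-coding transcripts only and added near-identical transcripts were chosen after seeing the data. Estimated counts carry mapping uncertainty that these tests do not include.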

Additional observations from a re-analysis of the deposited data

Results flagged for a closer look

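One library stood apart from the other 3 of its group for 1 gene. Cdk4 was at 463.3 CPM in KO normal replicate 2, against 480.7 to 481.6 CPM in the other 3 KO normal libraries. Such gaps were looked for in 40 combinations of gene and group, and chance gives about 1 in 20.

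The response to pausing differed between KO and WT cells for 9 of the 10 genes by the interaction test of edgeR, as the KO minus WT difference in log2 fold change. It was -1.55 for Ccne1, -1.23 for Ccnd2, -0.82 for Ccne2, -0.81 for Cdk6, -0.64 for Ccnd1, -0.60 for E2f1, -0.46 for Cdc25a, -0.20 for Cdk2 and -0.17 for Cdk4. Of all tested genes 41.9% passed this test.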

How the results depend on the processing

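Over all alternatives the number of members that passed was 7 to 9 for pausing in KO, 8 to 10 for pausing in WT, 7 to 10 for the interaction, 9 to 10 for KO against WT when paused and 5 to 7 in normal culture. Leaving out 1 library gave 8 to 9 members for pausing in KO, 9 to 10 for pausing in WT, 7 to 9 for the interaction, 9 throughout for KO against WT when paused and 5 to 6 in normal culture. All genes passing then ran, in that order, at 12116 to 12916, 10917 to 11523, 7235 to 8263, 11774 to 12624 and 12368 to 12983. Of 1440 refitted member values 1355 kept direction and side of the threshold, 34 lost and 22 gained a call, and 29 changed sign, and 33 of 50 values changed under no alternative. The cause of the changes was not tested. Signs changed as follows (log2). With protein-coding genes only, KO minus WT in normal culture was -0.0064 for Ccnd1 and -0.0107 for Cdc25a, and the Ccnd3 interaction was 0.0537. With protein-coding transcripts only, the same values were -0.0036, -0.0127 and 0.036, and pausing gave -0.0772 for Cdk4 in WT and 0.0092 for E2f1 in KO cells. Replicates 3 and 4 alone gave 0.0878 for Ccnd2 and -0.0529 for Cdc25a between genotypes in normal culture, 0.189 for the Ccnd3 interaction and 0.058 for E2f1 on pausing in KO cells, and replicates 1 and 2 alone gave 0.0417 for Cdk2 between genotypes in normal culture. The Ccnd3 interaction was 0.0104 with DESeq2 or its size factors and 0.0089 at a minimum count of 50, where Cdc25a between genotypes in normal culture was -0.003. Length-scaled counts gave 0.0395 for Cdk4 in KO and -0.0054 for Cdk6 in WT cells on pausing, and 0.0125 for Cdk6 between paused genotypes. Leaving out 1 library ran from -0.1646 to 0.0577 for Ccnd2 between genotypes in normal culture, -0.0505 to 0.0615 for the Ccnd3 interaction and -0.0466 to 0.0004 for E2f1 on pausing in KO cells. Estimated counts in place of TPM turned the direction of 2 share differences that had not passed, those of Ccnd2 among D-type cyclins and of Cdk4 beside Cdk6 on pausing in WT cells.

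With the replicate number as a block, 8 members passed for pausing in KO, 10 for pausing in WT, 9 for the interaction, 9 for KO against WT when paused and 6 in normal culture, where Ccne1 passed at 0.168 (edgeR adjusted p = 0.0214). Of all 18944 tested genes 12780, 11601, 8090, 12441 and 13013 passed, in that order. Same-numbered libraries correlated at -0.0491 to 0.0975 in their deviations from the group means over 24 pairs, and others at -0.0834 to 0.0823. These ranges overlap, and they cannot tell whether libraries of the same number shared a culture or a batch. At 88377380 to 116646028 counts a library, depth did not keep any member from being tested. The smallest change that passed depends on the spread estimated over all 16 libraries, with 4 in each group.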
